A study of Mus musculus with 22 samples.

Results

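The cubilin-megalin machinery takes proteins up from the fluid at the apical face of absorptive epithelia. It was followed here through 6 genes: Cubn, Amn, Lrp2, Lrpap1, Dab2 and Nostrin. These were the rows of a table of estimated counts for mouse gene symbols that carry those names, 6 of 55367, and all 6 were among the 17547 genes abundant enough to test. Levels are CPM, counts scaled to a fixed total per library, on library sizes adjusted by TMM, a method that sets libraries to a common level over most genes.

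Cubilin, encoded by Cubn, is a large extracellular receptor with no membrane anchor of its own, and amnionless, encoded by Amn, carries it to the cell surface and holds it there. Megalin, encoded by Lrp2, is a giant receptor of the LDL receptor family that works beside cubilin, and receptor-associated protein, encoded by Lrpap1, is the chaperone that keeps megalin and its relatives free of ligand in the secretory pathway. Disabled-2, encoded by Dab2, links such receptors to clathrin, and Nostrin encodes an F-BAR protein of the membrane trafficking machinery. The complex is best known from the kidney proximal tubule and from the visceral endoderm, the nutritive layer around the early mouse embryo, which descends from the primitive endoderm (PrE).

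RNA was sequenced from 22 libraries of mouse embryonic stem cells (ESCs) and of PrE stem cells, in 10 groups. PrE stem cell culture held C57_PrESC (line C57, wild-type, n = 2) and EPZ_iPrE1 and EPZ_iPrE2 (line E14, labelled wild-type, n = 2 each), lines that the series design says were made with EPZ-6438, an inhibitor of the histone methyltransferase EZH2. Wild-type ESCs grown with LIF, a cytokine that maintains them, were C57_ESC (n = 2), TG2A_ESC (E14 cells, n = 2) and E14_ESC (n = 3). Ezh2-null E14 cells were KO10_SL (n = 3, LIF) and KO10_S2iL (n = 2, LIF with 2i, inhibitors that hold ESCs in a naive state). KO10_SL_rescued (n = 2, LIF) was the null line with Ezh2 put back, and TG2A_S2iL (n = 2, LIF with 2i) was the wild-type control of KO10_S2iL. The labels spell the gene Eeh2. By the labels every null and rescued library came from 1 knockout line, how the rescue was driven is not given in the sources used here, and neither is whether replicates were separate cultures, so p-values measure the spread between these libraries, which may be technical.

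Libraries held 13586043 to 26280949 counts. Ezh2 matched the labels: 0 to 6 counts in each of the 5 null libraries, 495 and 533 CPM in the rescued ones and 118 to 239 CPM elsewhere. The 6 primitive endoderm markers (Gata6, Gata4, Sox17, Sox7, Pdgfra and Foxa2) summed to 1291 to 1845 CPM in the 6 PrE libraries and to 3.21 to 156.9 CPM in the 16 ESC libraries. Nanog, which marks pluripotent cells, was at 0.137 to 1.42 CPM in PrE libraries and 271 to 488 CPM in ESC libraries, while Pou5f1, another pluripotency factor, remained at 435 to 807 CPM in PrE libraries against 687 to 1856. Of the 9 visceral endoderm markers, Afp, Ttr and Apoa1 were at most 0.263 CPM in any PrE library, and Apob, Rbp4 and Trf at most 0.698 CPM. Hnf4a reached 27.9 to 77.9 CPM there and Apom 1.29 to 10.9 CPM. Ihh was at 75.8 and 42.7 CPM in C57_PrESC and at 4.84 to 10.1 CPM in EPZ_iPrE1 and EPZ_iPrE2. In C57_PrESC replicate 2, 12 fibroblast markers summed to 2005 CPM, against 28.9 in replicate 1. C57_ESC replicate 1 held 63.2 CPM of primitive endoderm markers against 12.2 in replicate 2, and these pairs are given library by library wherever a result rests on them.

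Promoters of 4 of the genes are shown because the genes behind them parted in the Ezh2-null cells, where Cubn, Nostrin and Lrpap1 rose and Lrp2 was not called. EZH2 belongs to Polycomb repressive complex 2, which in mammals is found mostly at promoters rich in CpG, so CG dinucleotides are in capitals. Each sequence is the RefSeq promoter of GRCm38.p6, 250 bases before to 50 after the start, written 5′ to 3′ on the strand of the gene.
Cubn promoter, chr2:13491827-13492126, strand -: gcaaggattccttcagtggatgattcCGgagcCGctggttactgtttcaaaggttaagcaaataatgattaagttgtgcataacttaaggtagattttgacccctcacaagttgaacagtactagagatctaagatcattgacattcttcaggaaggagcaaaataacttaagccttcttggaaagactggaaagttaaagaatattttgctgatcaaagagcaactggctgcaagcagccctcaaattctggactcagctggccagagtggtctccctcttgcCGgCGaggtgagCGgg
Nostrin promoter, chr2:69135550-69135849, strand +: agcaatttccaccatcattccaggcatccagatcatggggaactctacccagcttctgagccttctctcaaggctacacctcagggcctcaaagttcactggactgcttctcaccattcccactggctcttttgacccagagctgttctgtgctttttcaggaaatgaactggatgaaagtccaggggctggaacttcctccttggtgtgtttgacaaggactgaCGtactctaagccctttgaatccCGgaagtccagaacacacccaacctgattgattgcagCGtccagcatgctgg
Lrpap1 promoter, chr5:35105650-35105949, strand -: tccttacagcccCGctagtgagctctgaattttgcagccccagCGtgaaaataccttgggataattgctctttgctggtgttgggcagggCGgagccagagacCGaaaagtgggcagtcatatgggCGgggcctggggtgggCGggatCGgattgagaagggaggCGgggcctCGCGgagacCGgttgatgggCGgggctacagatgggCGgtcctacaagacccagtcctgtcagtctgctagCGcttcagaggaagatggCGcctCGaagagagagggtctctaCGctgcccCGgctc
Lrp2 promoter, chr2:69585980-69586279, strand -: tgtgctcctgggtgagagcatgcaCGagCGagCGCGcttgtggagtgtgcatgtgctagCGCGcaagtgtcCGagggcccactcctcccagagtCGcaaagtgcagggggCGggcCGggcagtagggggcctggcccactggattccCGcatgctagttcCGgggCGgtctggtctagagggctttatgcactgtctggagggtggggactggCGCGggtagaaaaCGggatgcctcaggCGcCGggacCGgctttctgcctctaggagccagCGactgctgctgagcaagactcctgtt

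All 6 genes had a promoter in that set. CG occurred 5 times in the Cubn promoter and 3 times in that of Nostrin, below the median of 7 over 32851 promoters. It occurred 18 times in the Lrpap1 promoter, 20 times in that of Lrp2 and 15 times in that of Amn (65.4% of promoters held fewer). Dab2 had an upstream promoter with 2 CG and a downstream one with 19. The genes that rose in null cells had promoters on either side of the median, and Lrp2, the gene not called, had the highest CG count of the set. A link between CG count and the change in null cells was not tested. The letters GATAA, read on both strands as a GATA-type motif, were found in the Lrpap1 promoter at 191 bases before the start and in the upstream Dab2 promoter, and in 25.4% of all promoters. ACAAT, a SOX-type motif, was found in none of the 7 promoters and in 31.0% of all. These are matches of letters only.

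In GRCm38, the build named mm10 in the submitters' processing notes, Cubn lies at chr2:13276338-13491813 on the minus strand, Amn at chr12:111271095-111276426 on the plus strand and Lrpap1 at chr5:35091501-35105766 on the minus strand. Dab2 lies at chr15:6299788-6440712 on the plus strand. Nostrin (chr2:69135800-69189330, plus) and Lrp2 (chr2:69424340-69586065, minus) are neighbours on chromosome 2, 235 kb apart with 4 protein-coding genes between them. Of these Spc25, a kinetochore gene, was at 45.9 to 82.8 CPM in every library, and G6pc2 and Abcb11 did not exceed 1.13 and 0.879 CPM. Dhrs9, the gene next to Lrp2, was at most 1.21 CPM except in C57_PrESC replicate 2, at 12.3 CPM, against 0.0677 in replicate 1. It was called lower in the EPZ lines than in C57_PrESC (-4.25, SE 1.49, adjusted p = 0.0394). All are protein-coding in GENCODE M21. Exons of Cubn share 368 bases with Gm13270 and those of Dab2 share 211 bases with Gm18888, both on the opposite strand, 2.46% and 2.87% of their exon length. Neither partner exceeded 0.845 CPM in any library, and the strand setting of the counting is not given in the sources used here.

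**Figure D1:**
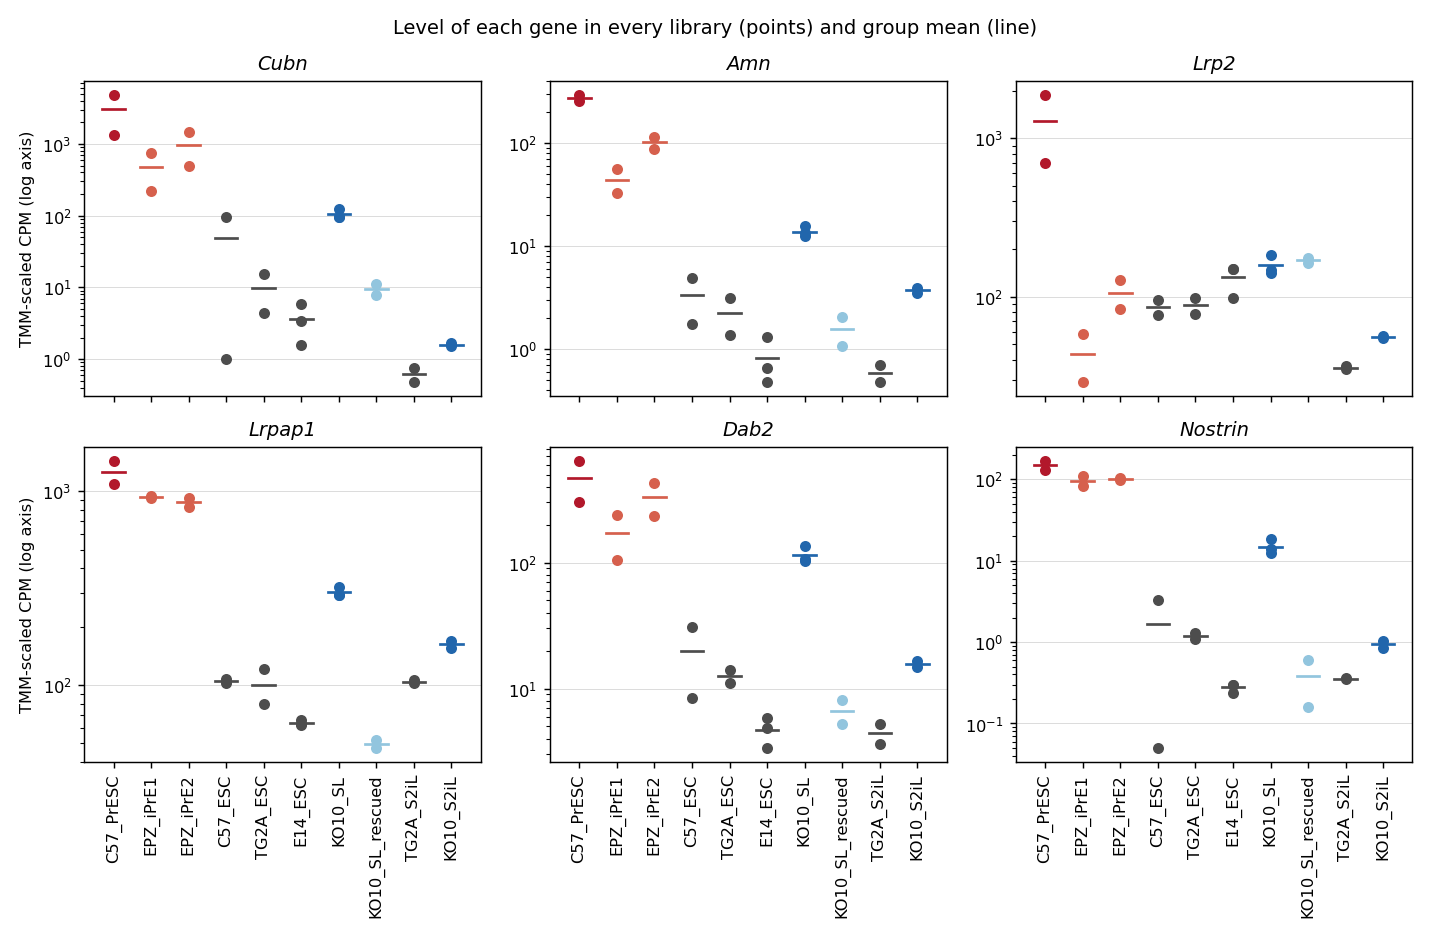
Each panel plots one gene, with TMM-scaled CPM on a log axis against the 10 groups; points are libraries and lines are group means. All but Lrp2 are high in the 3 PrE groups (red), intermediate in KO10_SL (blue) and lower on average in the other ESC groups, while Lrp2 stands clear of its neighbours in C57_PrESC.

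The first question was how the machinery differed between the PrE lines made with the EZH2 inhibitor and ESCs of the same cell line. In EPZ_iPrE1 against TG2A_ESC, 5 of the 6 genes rose and Lrp2 fell, so that all 6 were called by edgeR's quasi-likelihood test at a Benjamini-Hochberg adjusted p below 0.05, where 60.1% of all tested genes were called. In EPZ_iPrE2 the same 5 rose and Lrp2 was not called, with 62.2% of all genes called. The median log2 change of the 6 was 4.04 in EPZ_iPrE1 and 5.11 in EPZ_iPrE2, against -0.07 and -0.11 over all tested genes. In a bulk library, fewer cells that express a gene and less RNA per cell cannot be told apart.

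Cubn, the ligand-binding receptor, stood at 742.3 and 223.9 CPM in EPZ_iPrE1 and at 493.9 and 1451 CPM in EPZ_iPrE2, against 15.3 and 4.35 CPM in TG2A_ESC. Every PrE library was above both ESC libraries. The log2 change was 5.62 (SE 1.25, adjusted p = 0.000918) in EPZ_iPrE1 and 6.63 (SE 1.30, adjusted p = 0.000298) in EPZ_iPrE2, that is 49.1-fold and 98.9-fold. Amn, which anchors cubilin, was at 56.3 and 32.5 CPM in EPZ_iPrE1 and 88.5 and 115 CPM in EPZ_iPrE2, against 3.17 and 1.36 CPM. It rose 19.5-fold and 44.7-fold, with no overlap between the groups (adjusted p = 2.52e-07 and 1.79e-08).

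Lrp2, the megalin gene, went another way. It was at 29.0 and 58.1 CPM in EPZ_iPrE1, 126.8 and 84.0 CPM in EPZ_iPrE2 and 98.7 and 78.3 CPM in TG2A_ESC. Both EPZ_iPrE1 libraries lay below the ESC libraries, and those of EPZ_iPrE2 overlapped them. The change in EPZ_iPrE1 was -1.02 (SE 0.37, adjusted p = 0.0246), and it was not called without EPZ_iPrE1 replicate 1 (-0.63) or without TG2A_ESC replicate 1 (-0.81). In EPZ_iPrE2 it was 0.25 (95% interval -0.51 to 1.02, adjusted p = 0.563). Its chaperone Lrpap1 rose none the less, from 79.6 and 121 CPM in TG2A_ESC to 943 and 921 CPM in EPZ_iPrE1 and 919.5 and 834 CPM in EPZ_iPrE2. These were changes of 3.21 (SE 0.16, adjusted p = 9.94e-11) and 3.13 (SE 0.16, adjusted p = 1.18e-10), the most precise of the set.

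Of the intracellular partners, the clathrin adaptor gene Dab2 was at 240 and 105 CPM in EPZ_iPrE1 and 232 and 430 CPM in EPZ_iPrE2, against 13.9 and 11 CPM. It rose 13.8-fold (adjusted p = 1.37e-05) and 26.5-fold (adjusted p = 1.65e-06). Nostrin had the highest fold change of the 6 in EPZ_iPrE1, from 1.09 and 1.31 CPM to 109 and 81.9 CPM, 79.2-fold (adjusted p = 1.5e-07). In EPZ_iPrE2 it was at 103 and 98.4 CPM, 83.2-fold (adjusted p = 1.27e-07). The 5 genes that rose were called in all 10 alternative analyses of each of these comparisons.

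**Figure D2:**
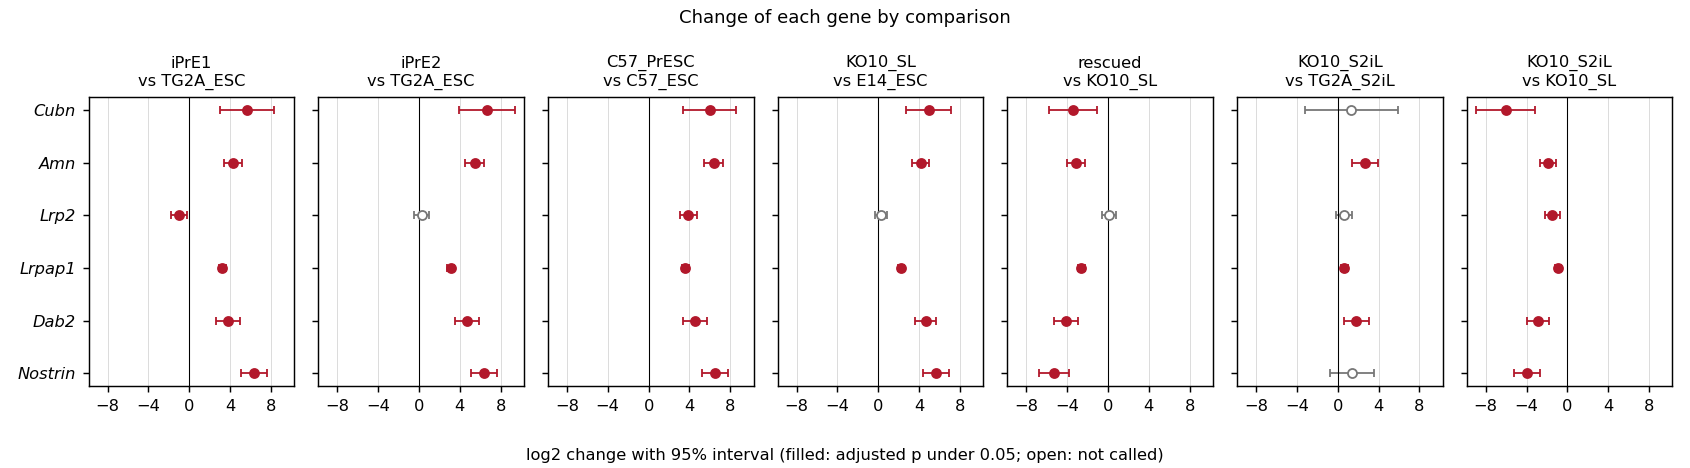
Log2 change of each gene (horizontal axis) in 7 comparisons, with 95% intervals; filled points are called at an adjusted p below 0.05 and open points are not. Lrp2 stays near 0 or below it in the EPZ comparisons and rises by 3.90 in C57_PrESC, while Cubn has the widest intervals.

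The C57 line gives the same contrast for PrE stem cells that were not made with the inhibitor, as far as the labels say. All 6 genes rose in C57_PrESC against C57_ESC, where 60.6% of tested genes were called, and their median log2 change was 5.28 against -0.09 over all genes. Lrp2 was among them: 702 and 1867 CPM against 76.3 and 95.4 CPM, 15-fold higher (log2 change 3.90, SE 0.40, adjusted p = 3.26e-07). Without C57_PrESC replicate 2 the change was 3.03. Both PrE libraries were above both ESC libraries. Amn was at 259 and 291 CPM against 4.93 and 1.77 CPM, an 82.6-fold rise (adjusted p = 3.82e-09). Lrpap1 was at 1433 and 1088 CPM against 107 and 103 CPM, a 12-fold rise (adjusted p = 3.03e-11). Dab2 was at 305 and 640 CPM against 31.1 and 8.43 CPM, a 24.0-fold rise (adjusted p = 2.19e-06).

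Cubn and Nostrin in this line depend on which ESC library is read. Cubn was at 1324 and 4747 CPM in C57_PrESC, and at 95.4 CPM in C57_ESC replicate 1 but 1.01 CPM in replicate 2. Nostrin was at 130 and 167 CPM in C57_PrESC, and at 3.29 CPM in C57_ESC replicate 1 against 0.0505 CPM, a single count, in replicate 2. With both ESC libraries the changes were 5.98 for Cubn (SE 1.24, adjusted p = 0.000512) and 6.49 for Nostrin (SE 0.59, adjusted p = 8.94e-08). Without C57_ESC replicate 1 they were 11.57 and 11.37. That library also had the higher primitive endoderm marker sum, given above, and the part of this in the result was not tested. Cubn was not called when only the C57 groups were fitted, at the same 5.98.

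Set beside each other, the 2 EPZ lines did not differ by a call in any of the 6 genes, with 3.91% of all genes called between them. Amn was 1.20 higher in EPZ_iPrE2 on the log2 scale (95% interval 0.46 to 1.93, adjusted p = 0.0668) and Lrp2 1.28 higher (0.49 to 2.06, adjusted p = 0.0682). For Cubn the interval was wide, -1.11 to 3.13, and for Lrpap1 narrow, -0.40 to 0.23. Against C57_PrESC, the mean of the EPZ lines was lower in 4 of the 6, with 40.7% of all genes called. Lrp2 was 19.0-fold lower (log2 change -4.25, SE 0.31, adjusted p = 2.23e-08), and Amn 4.10-fold lower (-2.03, SE 0.28, adjusted p = 2.43e-05). Neither gene overlapped between the 4 EPZ libraries and the 2 C57 libraries, and nor did Lrpap1 or Nostrin. The share of all genes without overlap was not counted here. Without C57_PrESC replicate 2, the library with the high fibroblast sum, the Lrp2 difference was -3.37. Cubn differed by -2.15 (SE 0.83, adjusted p = 0.0474), a call lost in 6 of 12 alternatives, among them without EPZ_iPrE1 replicate 2 (-1.84), without EPZ_iPrE2 replicate 1 (-1.86) and without C57_PrESC replicate 2 (-0.94). Lrpap1 differed by -0.48 (adjusted p = 0.00611), a call lost without C57_PrESC replicate 1 (-0.26). Dab2 at -0.98 and Nostrin at -0.60 were not called. Dab2 was called in 4 of 12 alternatives, among them without C57_PrESC replicate 1 (-1.42), EPZ_iPrE1 replicate 1 (-1.34) or EPZ_iPrE2 replicate 2 (-1.24), and Nostrin in 2 of 12.

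These levels also carry any difference between strains that ESCs and PrE cells share, which the change from ESC to PrE in each line removes. A strain difference in the change itself remains. The change in the EPZ lines less that in C57 was called for Lrp2 and Amn, with 35.1% of all genes called. For Lrp2 it was -4.29 (SE 0.48, adjusted p = 6.15e-06) and was called in all 16 alternatives, at -3.43 without C57_PrESC replicate 2. For Amn it was -1.48 (SE 0.56, adjusted p = 0.0486) and was called in 9 of 16; the call was lost without C57_ESC replicate 2 (-0.93), either C57_PrESC library (-1.56 and -1.40), EPZ_iPrE1 replicate 2 (-1.33), EPZ_iPrE2 replicate 1 (-1.41) or TG2A_ESC replicate 1 (-0.74). For Lrpap1 it was -0.42 (95% interval -0.84 to -0.0016) and not called. The differences for Cubn, Dab2 and Nostrin were 0.14, -0.32 and -0.15, with intervals that reached at least 1.07 on either side of 0. Without C57_ESC replicate 1 those of Cubn and Nostrin were called, at -5.43 and -5.00. Line, derivation and any difference in the ESC control cannot be told apart in this contrast.

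The 2 receptors can be set beside each other by length. Per kb of exon, which allows genes to be compared, C57_PrESC held 203 ± 162 CPM of Cubn and 76.9 ± 49.3 CPM of Lrp2 (SD, n = 2). EPZ_iPrE1 held 32.3 ± 24.6 and 2.61 ± 1.24 CPM per kb, and EPZ_iPrE2 held 65.1 ± 45.3 and 6.31 ± 1.81 CPM per kb. In both EPZ lines Lrp2 was the lowest of the 6 per kb and in every group Lrpap1 was the highest, at 226 ± 3.76 CPM per kb in EPZ_iPrE1 and 306 ± 59.3 in C57_PrESC. In the wild-type ESC groups the order was the reverse for megalin: Lrp2 ranked the second behind Lrpap1, with 5.30 ± 0.87 CPM per kb in TG2A_ESC against 0.658 ± 0.518 for Cubn.

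Replicates of the PrE lines differed in Cubn and Dab2 in the same direction relative to a marker sum. In C57_PrESC, EPZ_iPrE1 and EPZ_iPrE2 the library with the higher fibroblast marker sum held 3.58, 3.31 and 2.94 times the Cubn level of its partner. The same libraries held 2.10, 2.28 and 1.85 times the Dab2 level and 1.12, 1.73 and 1.30 times the Amn level. Their parietal endoderm marker sum was lower, at 0.556, 0.658 and 0.637 times that of the partner. Their macrophage marker sum was 3.76, 1.85 and 3.08 times that of the partner, and the visceral endoderm sum 0.795, 2.31 and 2.43 times. Hnf4a, which is part of the visceral endoderm sum, was at 1.21, 2.50 and 2.79 times. Lrp2 had no common direction (2.66, 0.498 and 0.662 times), and Lrpap1 stayed within 0.759 to 1.02 times. Gata6, which specifies PrE, was between 0.917 and 1.07 times its partner's level.

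The fibroblast sums themselves were 2005 against 28.9 CPM, 168 against 29.6 CPM and 279.7 against 60.1 CPM. Among ESCs, C57_ESC replicate 2 had the highest fibroblast sum, 356 CPM, with Cubn at 1.01 CPM and Dab2 at 8.43 CPM, both below replicate 1. Replicate 1 had the higher primitive endoderm marker sum, 63.2 against 12.2 CPM. The part of either marker sum in the Cubn and Dab2 levels was not tested, in PrE or ESC libraries. An analysis added after the data were seen left out the library of each PrE pair with the higher fibroblast sum. Cubn then changed by 4.51 in EPZ_iPrE1, 5.64 in EPZ_iPrE2 and 4.79 in C57_PrESC.

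**Figure D3:**
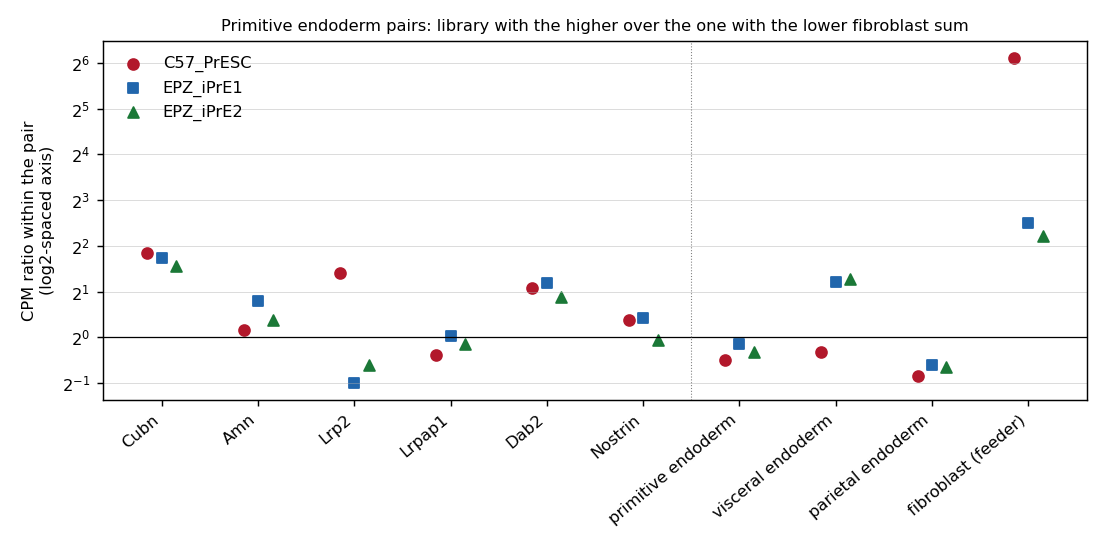
Ratio of CPM within each PrE pair, the library with the higher over the one with the lower fibroblast sum, for the 6 genes and 4 marker sums on a log2-spaced axis. Cubn and Dab2 lie above 1 in all 3 pairs and the parietal endoderm sum lies below 1.

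The next question was what loss of Ezh2 does to these genes in ESC culture. In KO10_SL against E14_ESC 5 of the 6 rose and Lrp2 was not called, where 48.6% of all tested genes were called. Their median change was 4.39 against 0.07 over all genes. Cubn was at 123.8, 96.4 and 96.1 CPM in the null libraries and at 5.87, 3.41 and 1.57 CPM in the wild type, 30.5-fold higher (log2 change 4.93, SE 1.05, adjusted p = 0.00098). Amn was at 15.6, 13.3 and 12.5 CPM against 1.32, 0.658 and 0.485 CPM, 17.6-fold higher (adjusted p = 6.5e-07). For both genes the lowest null library was several times the highest wild-type one.

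The chaperone gene Lrpap1 was at 321, 293 and 292 CPM against 63.1, 62.4 and 65.5 CPM, 4.74-fold higher (log2 change 2.24, SE 0.13, adjusted p = 6.56e-09). Dab2 was at 136, 103 and 108 CPM against 5.87, 4.90 and 3.40 CPM, 24.9-fold higher (adjusted p = 1.01e-06). Nostrin was at 18.2, 12.5 and 14 CPM against 0.299, 0.239 and 0.299 CPM, 51.6-fold higher (log2 change 5.69, SE 0.60, adjusted p = 1.33e-06). Only 0.735% of the tested genes had a larger absolute change than Nostrin in this comparison. Lrp2 was at 184, 141 and 147 CPM against 149, 150 and 98.8 CPM, with overlapping groups and a change of 0.25 (95% interval -0.36 to 0.87, adjusted p = 0.498).

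The 5 calls held in all 12 alternatives, and Lrp2 was called in 1, without a filter on low counts (0.29). The choice of wild type moved their size: with TG2A_ESC as the control the changes were 3.42 for Cubn, 2.60 for Amn, 1.59 for Lrpap1, 3.21 for Dab2 and 3.62 for Nostrin, and Lrp2 at 0.83 was still not called. The 2 wild-type sets themselves differed in Amn (-1.54 in E14_ESC against TG2A_ESC, adjusted p = 0.0414) and Lrpap1 (-0.66, adjusted p = 0.00245), with 24.3% of all genes called. Without TG2A_ESC replicate 2 the Lrpap1 difference was not called, at -0.32, and that of Amn was not called in 5 of 10 alternatives, among them without TG2A_ESC replicate 1 (-0.78), E14_ESC replicate 2 (-1.45) or E14_ESC replicate 3 (-1.20). The primitive endoderm marker sum was 12.8 and 32.3 CPM in TG2A_ESC and 3.21 to 4.79 CPM in E14_ESC.

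Mean levels in the null cells were below those of the EPZ lines for 5 of the 6 genes, and in Dab2 libraries of KO10_SL and EPZ_iPrE1 overlapped. As a share of the mean of both EPZ lines, KO10_SL held 14.5% of Cubn, 15.2% of Nostrin, 18.9% of Amn, 33.4% of Lrpap1 and 45.8% of Dab2. Gata6 stood at 12.7%, Gata4 at 12.7% and the primitive endoderm marker sum at 8.75%. The E14_ESC shares were 0.497% for Cubn, 0.284% for Nostrin and 7.04% for Lrpap1. Lrp2 in KO10_SL was above the EPZ lines, at 212% of their mean, as it was in E14_ESC at 178%. These ratios compare different cultures and carry no test.

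**Figure D4:**
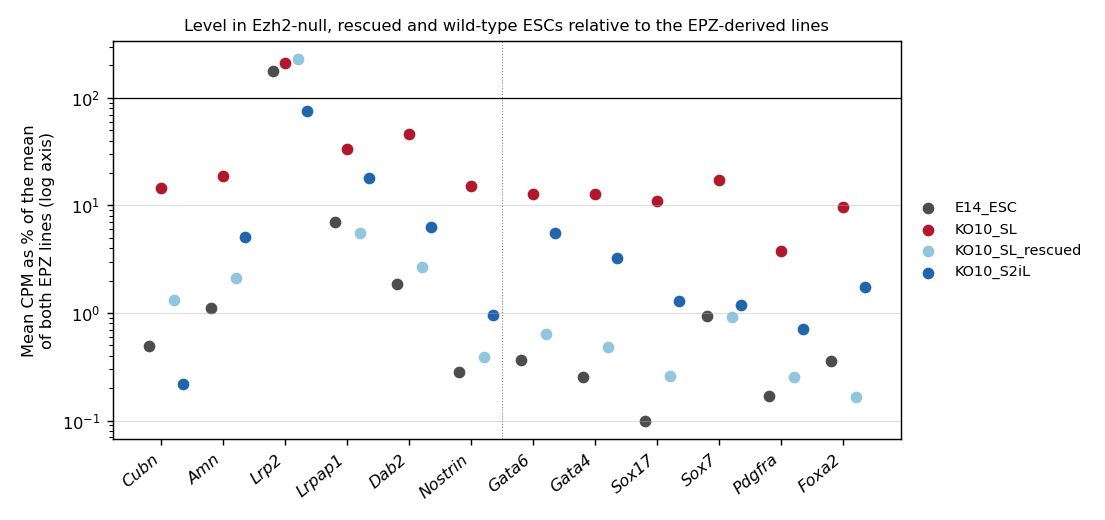
Mean CPM in E14_ESC, KO10_SL, KO10_SL_rescued and KO10_S2iL as a percent of the mean of both EPZ lines (log axis, line at 100%), for the 6 genes and 6 primitive endoderm marker genes. KO10_SL lies between 3.73% and 45.8% for all but Lrp2.

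Putting Ezh2 back asks whether the change can be undone. In KO10_SL_rescued against KO10_SL the same 5 genes fell and Lrp2 was not called, with 45% of all genes called (7896 of 17547). Cubn was at 11.3 and 7.77 CPM in the rescued libraries, a change of -3.47 (SE 1.11, adjusted p = 0.018), and this call was lost when either rescued library was left out (-3.74 and -3.24). Amn was at 2.05 and 1.07 CPM (-3.14, SE 0.43, adjusted p = 2.4e-05) and Lrpap1 at 47.4 and 51.9 CPM (-2.60, SE 0.15, adjusted p = 1.72e-08). Dab2 was at 8.15 and 5.20 CPM (-4.11, SE 0.55, adjusted p = 1.78e-05) and Nostrin at 0.610 and 0.161 CPM (-5.26, SE 0.69, adjusted p = 1.53e-05). Of the 7896 genes called over the whole table, 4225 were lower. Every rescued library lay below every null library in the 5 genes that fell. This is a description only, because the share of all genes so separated was not counted. The primitive endoderm marker sum moved with these 5 genes, from 125 to 157 CPM in KO10_SL to 6.38 and 5.84 CPM. All 6 of its genes were called lower, as were all 8 parietal endoderm markers. The part of these markers in the result was not tested. Lrp2 was at 164 and 175 CPM, a change of 0.10 (95% interval -0.58 to 0.79).

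Against E14_ESC, none of the 6 was called in the rescued cells, where 0.108% of all genes were called, 19 in all. By the same edgeR test 1 of the 6 was under 0.05 before adjustment: Lrpap1, with a change of -0.36 (95% interval -0.66 to -0.06, adjusted p = 0.448). The rescued libraries lay below all 3 wild-type ones in Lrpap1, above them in Cubn and Lrp2, and overlapped them in Amn, Dab2 and Nostrin. The share of all genes separated in this way was not counted, so the separation is a description only. The intervals do not exclude sizeable differences for the scarce genes: -0.96 to 3.88 for Cubn, -0.20 to 2.18 for Amn and -1.94 to 2.80 for Nostrin. DESeq2 called none of the 6 either. Lrpap1 was called when only these 2 groups were fitted, and Cubn and Amn were called without a filter on low counts, each in 1 of 10 alternatives.

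The medium was varied in null and wild-type cells. Under 2i, 3 of the 6 genes were higher in KO10_S2iL than in TG2A_S2iL, with 30% of all genes called (5263 of 17547). Amn was at 3.92 and 3.52 CPM against 0.480 and 0.701 CPM, 6.23-fold higher (adjusted p = 0.00359). Lrpap1 was at 169 and 156 CPM against 102 and 106 CPM, 1.56-fold higher (adjusted p = 0.00459). Dab2 was at 16.7 and 14.8 CPM against 3.66 and 5.20 CPM, 3.55-fold higher (adjusted p = 0.0254), a call lost when any one of the 4 libraries was left out (1.58 to 2.09).

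Cubn and Nostrin were scarce under 2i. Cubn was at 1.51 and 1.65 CPM in the null cells against 0.480 and 0.759 CPM, a change of 1.34 with an interval of -3.25 to 5.92. Nostrin was at 0.855 and 1.03 CPM against 0.360 and 0.350 CPM, a change of 1.39 (-0.74 to 3.53). Lrp2 was at 55.1 and 56.9 CPM against 36.7 and 34.8 CPM, a change of 0.65 (-0.13 to 1.43). These 3 were not called.

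Within the null line all 6 genes were lower under 2i than in the LIF medium, with 36.9% of all genes called. Cubn was 66.4-fold lower (log2 change -6.05, SE 1.37, adjusted p = 0.0025), and 0.12% of tested genes had a larger absolute change. Nostrin was 15.7-fold lower (adjusted p = 7.73e-05), Dab2 7.33-fold (adjusted p = 0.000317), Amn 3.71-fold (adjusted p = 0.000985), Lrp2 2.82-fold (adjusted p = 0.00296) and Lrpap1 1.86-fold lower (adjusted p = 0.000125). The primitive endoderm marker sum moved with them, from 125 to 157 CPM in KO10_SL to 32.3 and 36.8 CPM in KO10_S2iL, and its part in the result was not tested.

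In wild-type cells the same medium change lowered 2 of the 6, with 23.3% of all genes called. The change was -1.31 for Lrp2 (SE 0.37, adjusted p = 0.0175) and -1.93 for Amn (SE 0.64, adjusted p = 0.0375). Each call was lost without TG2A_ESC replicate 1 (-1.12 and -1.18), without TG2A_S2iL replicate 1 (-1.35 and -1.69) and without TG2A_S2iL replicate 2 (-1.28 and -2.24). Whether the knockout effect itself differed between media was tested by subtracting the change in LIF medium from that under 2i, with TG2A cells as the wild type in each. It was called for Lrpap1 only, at -0.95 (SE 0.20, adjusted p = 0.0259), with 1.95% of all genes called (147 higher and 196 lower, or 186 and 140 with RLE scaling). The Lrpap1 call was lost without any one KO10_SL, KO10_S2iL or TG2A_S2iL library (-1.001 to -0.88) and without TG2A_ESC replicate 1 (-0.65). For Cubn the difference was -2.08 with an interval of -7.74 to 3.57, so that the larger fall of Cubn in null cells was not shown to differ from that in the wild type.

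The rest of the uptake pathway was read from lists of genes around the 6. More ligand genes fell than rose in each PrE line, as was so over all genes. Summed over the list, their level was 1104 to 1934 CPM in PrE libraries and 229 to 1252 CPM in ESC libraries. Apoe, the most abundant of them, had means of 1254, 1525 and 1055 CPM in EPZ_iPrE1, EPZ_iPrE2 and C57_PrESC. Its means were 576 CPM in TG2A_ESC and 887 CPM in C57_ESC. Of 18 listed cargo genes 11 were abundant enough to test. In EPZ_iPrE1, EPZ_iPrE2 and C57_PrESC 2, 4 and 2 rose while 6, 5 and 7 fell. Of all 17547 genes 4892, 5060 and 4784 rose and 5657, 5855 and 5858 fell. The ligand medians were -1.32, -0.03 and -1.69, against -0.07, -0.11 and -0.09 over all genes. Tcn2, which carries vitamin B12, rose in each PrE line (3.53, 3.69 and 2.46). Trf, the iron carrier transferrin, was at 0.115, 0.0987 and 0.349 CPM against 11.2 CPM in TG2A_ESC and 18.5 CPM in C57_ESC. Apom, an apolipoprotein, rose by 3.94 in EPZ_iPrE1 and 3.95 in EPZ_iPrE2. Cblif, which encodes intrinsic factor, the classic cubilin ligand, had a mean of 0 CPM in every group, and Alb was at most 0.0343 CPM.

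Among 18 tested receptors related to megalin or serving uptake, 6 rose in each PrE line, while 4, 5 and 7 fell, and the list medians were 0.36, 0.15 and -0.01. Vldlr, a smaller LDL receptor relative, rose by log2 changes of 5.52, 5.59 and 3.89. Sorl1, a sorting receptor, fell, with log2 changes of -4.13, -4.63 and -7.38, as did Tfrc, the transferrin receptor, with -3.24, -3.13 and -5.38.

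Adaptor and coat genes were divided: of 29, 14 rose and 10 fell in EPZ_iPrE1, 15 and 9 in EPZ_iPrE2, and 13 and 8 in C57_PrESC. Myo6, the motor that moves Dab2-bearing vesicles, rose the most of the list in both EPZ lines (4.92 and 5.35) and rose by 3.87 in C57_PrESC, while Dab1, the neuronal relative of Dab2, fell, with log2 changes of -3.02, -2.84 and -4.03. Of 19 dynamin and BAR-domain genes 10, 10 and 6 rose and 6, 6 and 8 fell. Pacsin1, an F-BAR gene like Nostrin, fell (-4.31, -4.92 and -6.48), and Amph, amphiphysin, changed by 3.22 and 2.87 in the EPZ lines and -0.79 in C57_PrESC. Nos3, the nitric oxide synthase that Nostrin is named for, fell in all 3 lines (-3.95, -2.64 and -5.72).

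Of 23 endosomal genes 12, 11 and 15 rose and 6, 7 and 6 fell. Over all 17547 genes 4892, 5060 and 4784 were called higher and 5657, 5855 and 5858 lower. Clcn5, the endosomal chloride exchanger whose loss impairs megalin-dependent uptake in the kidney, rose by 3.65, 3.84 and 2.92, and Eea1, an early endosome tether, by 2.54, 2.50 and 1.79. Ehd3, a recycling ATPase, fell (-4.05, -4.13 and -3.89). Of 15 genes of the apical membrane and lysosomal end of absorptive epithelia, 7, 7 and 8 rose and 5, 6 and 5 fell, with medians of 1.36, 1.37 and 1.28 against all-gene medians near 0. Podxl, an apical sialomucin, rose by 4.79, 5.07 and 3.98 and Cst3, a cystatin, by 3.73, 3.93 and 3.22. Slc34a2, a sodium-phosphate cotransporter, rose by 5.43, 5.41 and 6.23. Dpp4 and Cgn of the same list had lower group means in both EPZ lines than in TG2A_ESC. Dpp4 was at 2.62 CPM in EPZ_iPrE1 and 6.61 CPM in EPZ_iPrE2, against 32.9 CPM in TG2A_ESC. Cgn was at 6.82 and 9.15 CPM in the same lines, against 53.9 CPM. Prom1, a protein of membrane protrusions, fell by 4.48 in C57_PrESC, and its mean was 7.13 and 6.97 CPM in the EPZ lines against 2.69 CPM in TG2A_ESC.

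In the null cells genes of the surrounding pathway were called in both directions. In KO10_SL against E14_ESC the list medians were -0.36 for receptors, -0.02 for adaptors, -0.04 for dynamin and BAR genes and 0.07 for endosomal genes. The counts called higher and lower were 3 and 7 of 18, 8 and 9 of 29, 4 and 6 of 19, and 6 and 6 of 23, beside 4534 and 3990 of 17547 over all genes. Ligand genes had 6 higher, 0 lower and a median of 1.32, led by Clu, a secreted chaperone (2.68), and Lgals3, a galectin (2.21). The rise of Lgals3 depends on the wild-type set: its mean was 36.9 CPM in KO10_SL, 7.97 CPM in E14_ESC and 56.1 CPM in TG2A_ESC. Clu was at 61.2, 9.48 and 8.51 CPM in the same groups. The ligand list was not counted against TG2A_ESC. The apical list had 10 higher and 2 lower of 15 and a median of 1.06, with Ctsl, a lysosomal protease, at 2.49 and Muc1, a mucin, at 1.72. Among receptors, Stab2, a scavenger receptor, rose by 1.98 and Lrp1, a large relative of megalin, fell by 1.49 on the log2 scale. On rescue 6 of the 11 ligand genes and 8 of the 15 apical genes fell, and 0 and 2 rose.

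**Figure D5:**
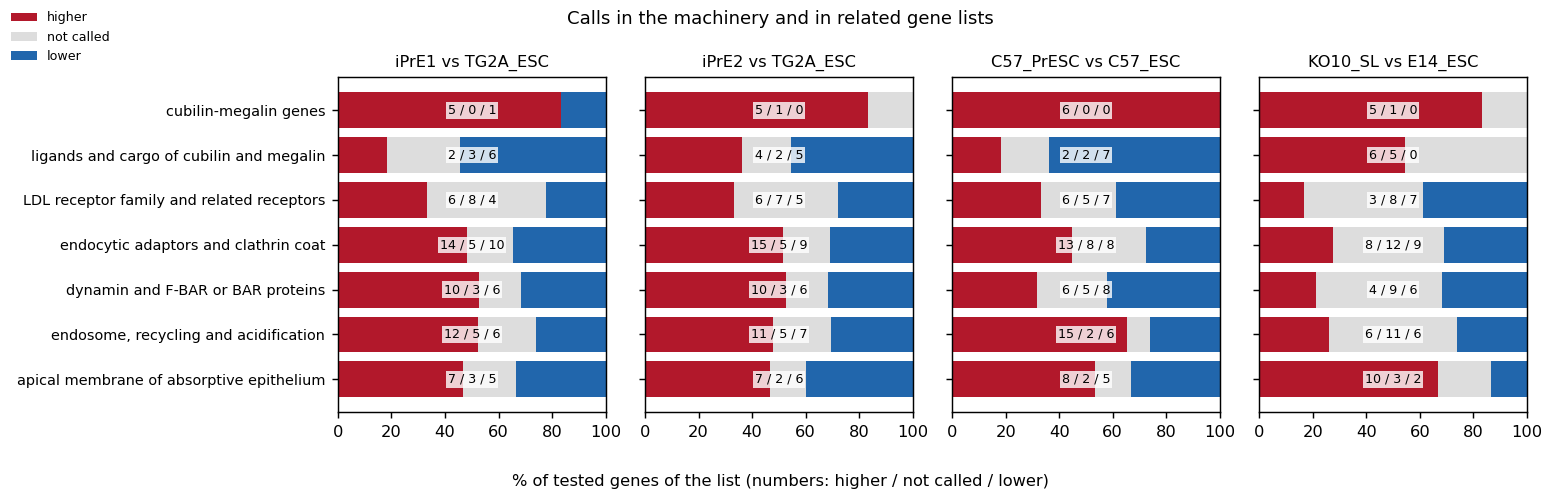
Share of the tested genes of each list called higher (red), not called (grey) or lower (blue) in 4 comparisons, with the counts printed on the bars. Between 5 and 6 of the cubilin-megalin genes are called higher in each comparison, and the surrounding lists hold genes of both directions except the ligands in KO10_SL.

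Across the 22 libraries the log2 CPM of Cubn, Amn, Lrpap1, Dab2 and Nostrin were correlated with Pearson r of 0.84 to 0.977 for their 10 pairs, and Lrp2 with the other 5 at 0.28 to 0.51. The libraries share their groups, so these values describe the same PrE against ESC contrast and carry no test. The genes with the most similar pattern, by Pearson r over the 22 libraries, were Tcf23 (0.97), Sox7 (0.956) and Srgn (0.953) for Cubn, and Tmem9b (0.981), Dram1 (0.978) and Dab2 (0.977) for Amn. For Dab2 they were Amn (0.977), Adora1 (0.974) and Bace2 (0.974), and for Nostrin they included Hkdc1 (0.989) and Srgn (0.987). For Lrpap1 they were Surf4 (0.985), Shisa5 (0.985) and Ctsl (0.98). The best for Lrp2 was lower, Cisd2 at 0.801, followed by Prelid3b and Clec2f at 0.796.

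In the order of group means, C57_PrESC was the highest for all 6 genes. For Cubn, Amn, Dab2 and Nostrin the order went on with EPZ_iPrE2, EPZ_iPrE1 and KO10_SL. Libraries of C57_PrESC and EPZ_iPrE2 overlapped in Cubn and Dab2 and not in Amn or Nostrin. The lowest groups were TG2A_S2iL for Cubn (0.620 CPM), Amn (0.590 CPM), Dab2 (4.43 CPM) and Lrp2 (35.7 CPM), KO10_SL_rescued for Lrpap1 (49.7 CPM) and E14_ESC for Nostrin (0.279 CPM). For Lrp2 the groups from KO10_SL_rescued down to C57_ESC, at means of 169 to 85.8 CPM, each overlapped the next, so C57_PrESC was the one group that stood clear of its neighbour at the top.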

How the data were processed

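RNA-seq of 22 mouse libraries was analysed. Per the submitters' processing notes, the tools were Trim Galore, STAR 2.7.6a and DESeq2 with the build mm10, in no stated order; the counting step, its annotation and its strand setting are not named in those notes or the labels. Labels call the RNA polyA and the kit one that depletes ribosomal RNA, so the selection is uncertain. The authors deposited expected counts per gene symbol, 55367 symbols, with 5.71 to 7.26% of values fractional per library. The plan had assumed whole counts; the values were rounded before modelling, and how reads matching several genes were shared is unknown.

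Genes were kept with filterByExpr over the 10 groups, scaled by TMM, and fitted with edgeR 4.0.16 in R 4.3.3 (quasi-likelihood, 1 coefficient per group, 12 residual degrees of freedom). Each of 14 contrasts was adjusted by Benjamini-Hochberg over all 17547 tested genes, and a gene was called below 0.05. The SE is the absolute log2 change divided by the square root of F, and intervals are 95%. Log2 CPM for correlations used a prior count of 2. Locations came from GENCODE M21. Alternatives were DESeq2 1.42.0, plain totals, no low-count filter, only the compared groups, a replicate block, TG2A_ESC as the control and each library left out. The model was tested on simulated counts. Replicate libraries differed by more than sampling noise. Library totals of 13586043 to 26280949 counts limit the scarce genes, with single counts near 0.05 CPM.

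The 6 genes, the lists around them and the marker lists were chosen with earlier results of these data known, and the lists are described by counts and medians with no test of the list. Named pathway genes were drawn from the up to 4 called genes of largest absolute change per list and comparison, passing over those with a few counts in a group, with values from other PrE comparisons beside most of them. Tcn2, Prom1 and Trf levels, Dhrs9, Cblif, Alb, Apoe, Dpp4 and Cgn were named after their values were seen, as were the group means of Clu and Lgals3. Among the genes of most similar pattern, 1 is not reported here, nor is 1 of the motifs searched.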

Additional observations from a re-analysis of the deposited data

Results flagged for a closer look

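For 3 gene changes the difference between settings passed a test of its own (edgeR, Benjamini-Hochberg). The change of Lrp2 from ESC to PrE stem cells was lower in the EPZ lines than in C57 by a log2 difference of -4.29 (adjusted p = 6.15e-06): it was -1.02 and 0.25 in the EPZ lines and 3.90 in C57. For Amn the difference was -1.48 (adjusted p = 0.0486), with rises of 4.29, 5.48 and 6.37. It ran from -2.40 to -0.74 over the alternatives, and the call was lost in several of them. For Lrpap1 the change on loss of Ezh2 was smaller under 2i than in LIF medium by a difference of -0.95 (adjusted p = 0.0259), with 0.64 under 2i and 1.59 in LIF medium. That difference ran from -1.24 to -0.65 over the alternatives, and most of them lost the call.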

How the results depend on the processing

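Of 499 alternative values for gene changes called in the report, 454 kept direction and call and 45 kept direction but lost the call. Over all 911 values 21 changed sign, none of them called in the report. Counts of the 6 genes called that moved by over 1.5 times, or from 0, were these. Brackets hold the number of all genes called in the same fit. Without a filter on low counts, with 30244 genes tested, the count was 4 in EPZ_iPrE2 against EPZ_iPrE1 (1143) and 2 in rescued against E14_ESC (389). It was 6 in the knockout under 2i (5151) and 5 in the wild-type medium change (4212). It was 4 in the difference of the knockout change between media (923) and 6 in E14_ESC against TG2A_ESC (4180). With DESeq2 it was 2 between the EPZ lines (1034 of 14543) and 4 in the wild-type medium change (4514 of 16786). With only the compared groups fitted it was 1 in the EPZ change less the C57 change (3041 of 15940) and 1 in rescued against E14_ESC (551 of 14880). It was 6 in the knockout under 2i (9607 of 15453), 4 in the wild-type medium change (3623 of 14586) and 3 in the difference between media (1795 of 16567). Without the PrE library of each pair with the higher fibroblast sum, chosen after seeing the data, it was 1 between the EPZ lines. With 1 library left out it ran from 1 to 4 in the EPZ change less the C57 change, 0 to 1 between the EPZ lines, 0 to 2 in the wild-type medium change, 0 to 1 in the difference between media and 1 to 2 between the wild-type sets. Smaller moves were from 3 to 2 in the knockout under 2i without any one of its 4 libraries, and 3 to 5 in the EPZ lines against C57_PrESC. The cause was not tested.

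Whether the replicate numbers paired the libraries was not settled. Over 41 same-numbered pairs the correlation of deviations from group means ran from -0.363 to 0.375, with 6 above 0.1. Where both groups held 2 libraries, their pairs give the same value by construction and are not separate checks. The value was 0.29 for C57_ESC with C57_PrESC. With the replicate block the count was 1 between the EPZ lines (582 of 17547 over all genes), 0 in the difference between media (165) and 1 between the wild-type sets (3735). Cubn in the EPZ change less the C57 change was then -0.19, Lrp2 on rescue -0.029 and Amn in the difference between media -0.12.

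With 1 library left out, values that changed sign ranged, for the EPZ change less the C57 change, from -5.43 to 1.34 in Cubn, -1.55 to 0.32 in Dab2 and -5.00 to 0.83 in Nostrin. In the difference between media they ranged from -0.67 to 0.56 in Amn and -0.34 to 0.0088 in Lrp2. They ranged from -0.0785 to 0.52 for Lrp2 in EPZ_iPrE2, -0.21 to 0.38 for Lrpap1 in the wild-type medium change, -0.13 to 0.29 for Nostrin between the EPZ lines and -0.79 to 1.09 for Nostrin in rescued against E14_ESC. A group left with 1 library was assumed to vary like the others.

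Over all genes, the number called moved by over 1.5 times, with only the compared groups fitted, in EPZ_iPrE2 against EPZ_iPrE1 (686 to 28), C57_PrESC against C57_ESC (10642 to 5383), the EPZ lines against C57_PrESC (7150 to 4445), the EPZ change less the C57 change (6167 to 3041), rescued against E14_ESC (19 to 551), the knockout under 2i (5263 to 9607), the medium change in null cells (6482 to 10037) and the difference between media (343 to 1795). It was 4863 for the knockout with TG2A_ESC as the control (8524). Levels on plain library totals moved by at most 12.9%.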
